A study of Mus musculus with 360 samples.

Results

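The comparison set 30 cells from the first plate of the sagittal (SAG) suture against 76 cells from the tibial growth plate (GP), of which 19 came from GP plate 1 and 57 from GP plate 2. Cells were kept if at least 500 genes had a read and at least 10000 reads remained once those of Rn45s, the 45S ribosomal RNA precursor, were left out. These 106 cells were part of 322 that passed this filter among the 360 deposited over 8 plates. The second SAG plate was not used, since Rn45s took 86.8% of its reads, against 24.5% on SAG plate 1 and 27.8% and 30.9% on the GP plates. All animals were wild-type CD-1 mice at postnatal day 3, with no transgene and no treatment. Both tissues were sorted in the same way for skeletal stem and progenitor cells, as CD51+ and CD200+. Cells bearing the blood markers CD45 or Ter119, the endothelial marker Tie2, either form of Thy1, 6C3 or CD105 were sorted out, and 1 cell went into each well. Tissue of many animals was combined before sorting and no cell was tied to an animal, so each tissue was 1 sample and no difference had a replicate check. Tissue and plate cannot be told apart, because every plate held 1 tissue.

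The sagittal suture is the fibrous joint between the paired parietal bones of the skull vault, which form directly in membrane, and the sampled complex also took in bone edges, periosteum and dura mater. The growth plate lengthens a long bone through a cartilage template, in which chondrocytes that make type II collagen enlarge, turn on type X collagen and are replaced by bone. Skull vault and hindlimb mesenchyme also carry different position genes, such as Alx and Zic factors in the head and Hox factors of the 5′ clusters with Pitx1 and Tbx4 in the hindlimb.

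SAG plate 1 held 6873714 reads other than Rn45s, GP plate 1 4936917 and GP plate 2 23526313. The median cell had 188427 such reads on SAG plate 1 (16666 to 573667), 225149 on GP plate 1 (55494 to 486034) and 428655 on GP plate 2 (26556 to 871328). Medians of genes with a read were close, at 2891, 3044 and 2964. Levels are given below as CPM, in which the reads of a gene, summed over the cells of a plate, are scaled to a common total of reads other than Rn45s. Intervals are exact at 95% and cover counting error only, and for a plate with 0 reads of a gene the limit used was that of 3 reads, 0.436 CPM on SAG plate 1. For 1 cell of SAG plate 1 the title gave SAG and the description gave another suture and plate. Leaving it out changed the number of genes higher on SAG plate 1, given next, to 403 and that of lower genes to 657.

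Of 9532 genes with at least 10 CPM in either tissue, SAG plate 1 was at least 4-fold above both GP plates for 395 (4.14%) and at least 4-fold below both for 640 (6.71%). Ratios carry 1 CPM added to each side and are taken to the nearer GP plate. The median gene differed by 0.10 on the log2 scale between SAG plate 1 and all GP cells. The GP plates themselves differed by at least 4-fold for 14.6% of genes, which is why a gene had to lie beyond both. A single cell gave over 50% of the reads for 202 of the 395 higher genes and for 114 of the 640 lower ones, and such genes were not named by size. Across the 9532 genes, the correlation of log2 levels was 0.61 between SAG plate 1 and GP plate 2, 0.56 between SAG plate 1 and GP plate 1, and 0.75 between the GP plates, as a description over genes that share libraries.

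**Figure D1:**
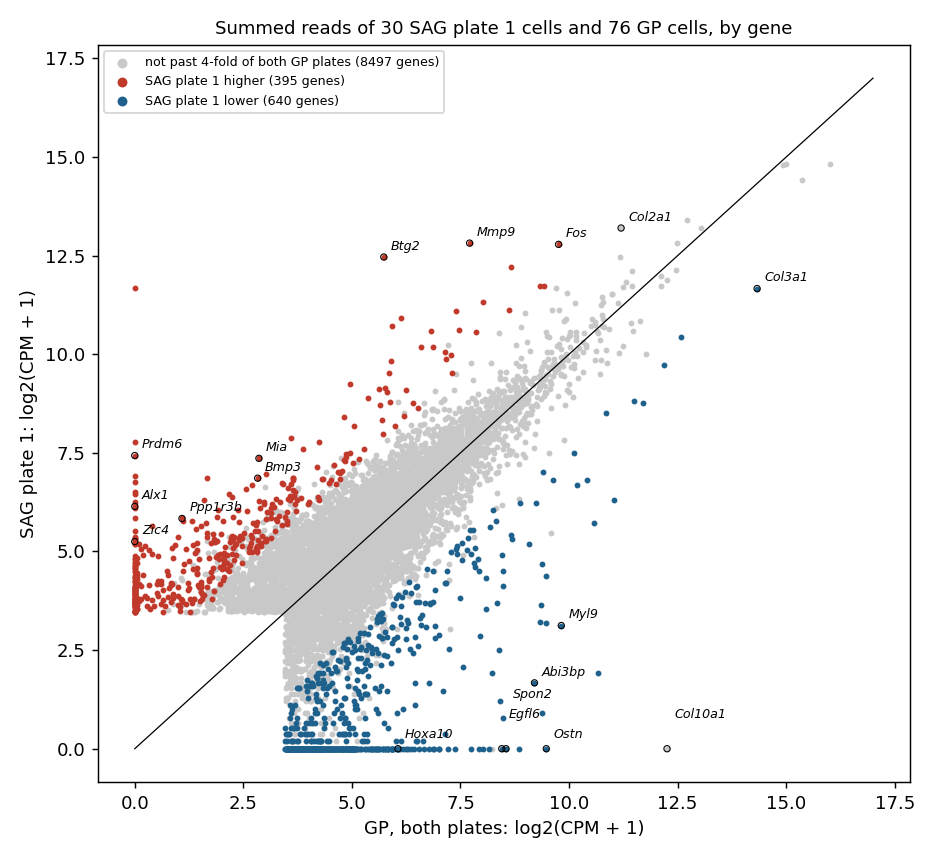
Levels of 9532 genes as log2(CPM + 1), summed over 30 SAG plate 1 cells (vertical axis) and over 76 GP cells (horizontal axis), with the diagonal marking equal levels. The 395 genes at least 4-fold above both GP plates are red and the 640 at least 4-fold below both are blue, and named genes include Btg2 and Mmp9 high on SAG plate 1 and Ostn, Spon2 and Egfl6 at 0 there.

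The 5 genes set as markers of the contrast each lay at least 4-fold apart in 1 direction. They were chosen with earlier results of these data known, so this is a description and no test. Zic4, a zinc finger factor of dorsal and midline head tissue (mm9, chromosome 9, 91257251 to 91284186, plus strand), was at 37.1 CPM on SAG plate 1 (32.7 to 41.9) and had no read on either GP plate. Ppp1r3b, a subunit that brings protein phosphatase 1 to glycogen (chromosome 8, 36438795 to 36451178, plus strand), was at 56.2 CPM against 1.01 and 1.15 on the GP plates. Bmp3, a member of the BMP family that restrains bone formation (chromosome 5, 99283458 to 99309979, plus strand), was at 115 CPM against 0 and 7.4. Reads of Zic4 and of Bmp3 each came from 10 of the 30 SAG cells and those of Ppp1r3b from 9, a minority of cells in each case. In the PF and COR sutures, Zic4 was at 7.62 and 24.4 and at 0 and 16 CPM, Ppp1r3b at 17.3 and 35.8 and at 0 and 39.1, and Bmp3 at 63.6 and 81.6 and at 132 and 43.1.

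The other markers were higher on the GP plates. Ostn, which encodes osteocrin, a secreted ligand of the natriuretic peptide clearance receptor (mm9, chromosome 16, 27307575 to 27351298, plus strand), stood at 312 CPM on GP plate 1 and 795 on GP plate 2, in 6 of 19 and 20 of 57 cells. Spon2, a secreted spondin of the extracellular matrix (chromosome 5, 33556167 to 33560887, minus strand), stood at 1136 and 213 CPM, in 9 and 19 cells. Among GP cells, Ostn was read in 4 of 21 with a read of Col2a1, the type II collagen gene, and 22 of 55 without. Spon2 was read in 6 and 22 of the same cells. Neither had a read in any of the 30 SAG cells, so that over all GP cells Ostn was at least 1629-fold and Spon2 at least 855-fold higher. The exact interval for 0 of 30 cells reaches 11.6% of cells with a read. On the other skull plates both genes were read, Ostn at 2.20 and 1.15 CPM in the posterior frontal (PF) suture and 7.41 and 22.1 in the coronal (COR) suture, and Spon2 at 15.6 and 17.5 in PF and 13.3 and 49.3 in COR.

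Position genes of the head were read in most SAG cells and few GP cells. Of 10 cranial position genes, 4 reached 10 CPM. Of these, 3 were past 4-fold higher on SAG plate 1, namely Alx1, Zic4 and Zic1, beside 4.14% of all genes. Zic4 was a marker chosen with earlier results of these data known, so its part in this count is no support. Alx4 was at 18.8 CPM against 0.41 and 4.97. Alx1, a homeobox factor of the frontonasal and periocular mesenchyme, was at 69.7 CPM in 9 of 30 cells and had no read in GP. Together the 10 genes gave 142 CPM on SAG plate 1 and 0.41 and 7.48 on the GP plates, and 23 of 30 SAG cells had a read of at least 1 of them (76.7%, 57.7% to 90.1%), against 1 of 19 and 5 of 57 GP cells. The PF and COR plates lay between 37.7 and 146 CPM for the same sum.

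Hindlimb position genes ran the other way. All 6 of the 18 listed genes that reached 10 CPM were past 4-fold lower, beside 6.71% of all genes. These were Hoxa9, Hoxa10, Hoxa11, Hoxc10, Tbx4 and Pitx1, and none of the 18 had a read in any SAG cell. The list gave 311 CPM on GP plate 1 and 235 on GP plate 2, at least 569-fold above the limit of SAG plate 1 over all GP cells. At least 1 of these genes was read in 16 of 19 and 44 of 57 GP cells, which is 78.9% of GP cells (68.1% to 87.5%) against 0 of 30. Pitx1, the hindlimb identity factor, was the most widely read, in 8 of 19 and 31 of 57 cells at 45.2 and 57.9 CPM. Hoxa10 was at 79.4 and 62.8 CPM in 7 and 20 cells.

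**Figure D2:**
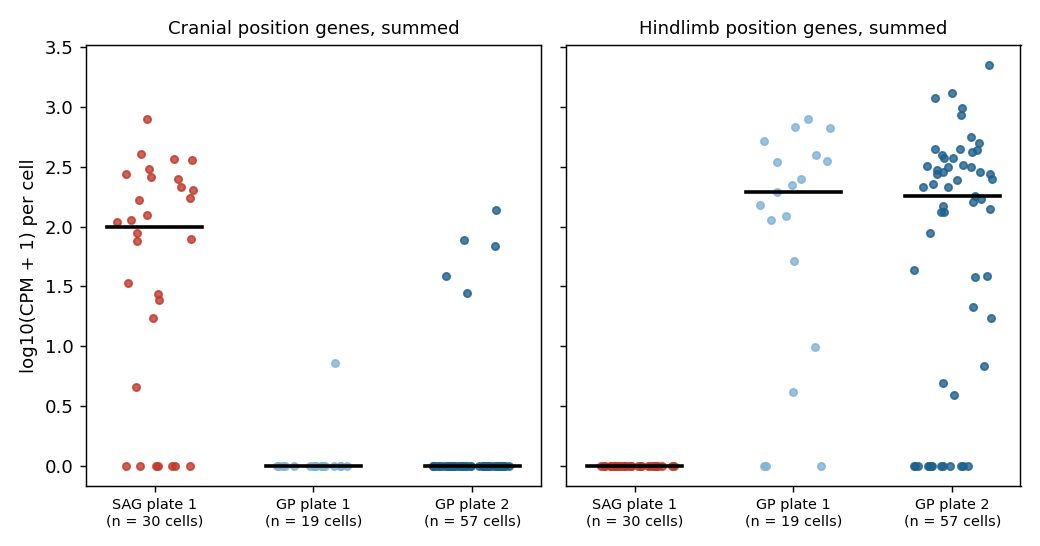
Summed CPM of 10 cranial (left) and 18 hindlimb (right) position genes in each cell, as log10(CPM + 1), with a point per cell and a bar at the plate's median. All 30 SAG plate 1 cells lie at 0 for the hindlimb genes and 23 lie above 0 for the cranial genes, while most GP cells show the reverse.

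Beyond the markers and position genes, the largest ratios on SAG plate 1 included Prdm6, a PR domain repressor best known from smooth muscle, at 172 CPM in 18 of 30 cells and with no read in GP. Lamc3, a laminin chain, was at 67.5 CPM in 7 cells with no read in GP, nor on the PF and COR plates. Msx1, a homeobox factor of skull and tooth mesenchyme, was at 40.3 CPM against 0.81 and 1.02, and was read in 20 of 30 SAG cells against 1 and 2 on the GP plates. Prdm16, a regulator of craniofacial and fat development, was at 28.5 CPM in 6 cells against 0 and 0.55. Cntnap2, Snx22, Tenm4, Rbpjl and Sned1 completed the higher set apart from Btg2, Errfi1 and Mia, described below, and each of the 5 came from 6 to 10 SAG cells. With 10 CPM added to each side in place of 1, Prdm16, Snx22 and Tenm4 no longer passed 4-fold, at log2 ratios of 1.87, 1.91 and 1.95.

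Of 11 factors of suture development above 10 CPM, 3 were past 4-fold higher on SAG plate 1, beside 4.14% of all genes, and none was lower. The higher genes were Msx1, Msx2 (95.4 CPM against 0 and 5.91) and Six2 (39.1 against 0 and 3.06). Twist1, whose loss of 1 copy causes coronal synostosis, was at 15.6 CPM against 16.4 and 8.46, between the GP plates. Prrx1, a marker of limb and skull mesenchyme, was at 172 CPM against 215 and 223, and Dlx5, an osteoblast factor, at 98.2 against 90.1 and 94.8.

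Col2a1 and the type IX collagen genes were read in a larger share of the SAG plate 1 cells than of the GP cells. Col2a1, the main fibrillar collagen of cartilage, was read in 22 of 30 SAG cells (73.3%, 54.1% to 87.7%) and in 21 of 76 GP cells (27.6%, 18% to 39.1%), and after thinning every cell to 100000 reads the shares were 72% and 23.9%. Its level was 9413 CPM on SAG plate 1, 53.5 on GP plate 1 and 2831 on GP plate 2, and 1 cell gave 48.3% of its SAG reads and another 62.8% of its GP reads. In cells with a read, the median was 2827 CPM on SAG plate 1 and 739 in GP, with highest values of 68234 and 48224. On the skull plates of the other sutures Col2a1 stood at 1.18 and 58.7 CPM in PF and 0.31 and 2.26 in COR.

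Type IX collagen, which coats type II fibrils, was past 4-fold in all of its chains. Col9a1 was at 2220 CPM on SAG plate 1 against 0 and 471, Col9a2 at 1160 against 14.4 and 138, and Col9a3 at 4730 against 18 and 483. Col9a3 was the most widespread, in 26 of 30 SAG cells and in 1 of 19 and 12 of 57 GP cells. The other collagens of the list did not pass 4-fold to the nearer plate. Col11a2 was at 275 CPM against 5.27 and 127, while Col11a1 was at 1199 against 1170 and 1373, within the range of the GP plates, and was read in 28 of 30 SAG and 66 of 76 GP cells. Col27a1, a fibrillar collagen of cartilage, was at 74.9 CPM against 54.7 and 46.7, in 12 of 30 SAG and 32 of 76 GP cells. The 7 collagens together gave 19073 CPM against 1316 and 5470, a log2 difference of 1.80 to the nearer plate, which on its own does not reach 4-fold.

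Of 19 cartilage matrix genes, 18 reached 10 CPM, and 8 were past 4-fold higher, 1 was lower and 9 passed in neither direction. Of all genes, 4.14% were higher and 6.71% lower. The higher genes were the matrilins Matn1, Matn3 and Matn4, the chondromodulin gene Lect1, Ucma, Cytl1, Clec3a and Mia. Matn4, an adaptor of the matrix that bears a von Willebrand domain, was at 1165 CPM against 115 and 92 and was read in 24 of 30 SAG cells. Mia, a secreted protein of chondrocytes, was at 164 CPM against 0.81 and 7.4, in 23 of 30 SAG and 5 of 76 GP cells. Lect1 was at 2554 CPM against 0 and 310.1, in 21 SAG and 5 GP cells. Matn1 rested on 7 SAG cells, at 1934 CPM against 0 and 83.7, and 1 cell gave over 50% of the SAG reads of Matn1, Matn3, Ucma and Cytl1.

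The lower gene was Cilp2, a cartilage intermediate layer protein, at 41.5 CPM against 709.6 and 337. Acan, the aggrecan core protein, was at 232 CPM against 201 and 295, and Comp, an oligomeric protein shared with tendon, at 726 against 582 and 1893, both between the GP plates. For Comp, 1 cell gave 94.9% of the reads in GP cells with Col2a1, so its level on GP plate 2 rested largely on that cell. The median log2 ratio over the 18 genes was 1.93, and over the cartilage collagens 2.00, beside 0.10 for all genes. Sox9, the factor that drives chondrocyte fate, was at 124 CPM against 33.8 and 28.7, and its partners Sox5 (118 against 34.2 and 19.9) and Sox6 (45.4 against 13.2 and 8.76) also lay above both GP plates, short of 4-fold. Runx3 was the only member of that list past the threshold, at 0.58 CPM against 18.2 and 10.7.

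Col10a1, the collagen of hypertrophic chondrocytes, had no read on SAG plate 1 or GP plate 1 and stood at 5918 CPM on GP plate 2, in 13 of 57 cells, of which 1 gave 43% of the reads. Of the 21 GP cells with Col2a1, 11 also had Col10a1, against 0 of 22 such SAG cells (0% to 15.4%), and with at least 10 Col2a1 reads required the counts were 8 of 17 and 0 of 22. Mmp13, a collagenase of late chondrocytes and of osteoblasts, was at 5670 CPM on SAG plate 1 against 0 and 2780, and was read in 10 of the 22 SAG cells with Col2a1. Ihh, the hedgehog ligand of prehypertrophic chondrocytes, had no read on any of the 3 plates. The 7 hypertrophic genes gave 5786 CPM on SAG plate 1 and 8.51 and 8826 on the GP plates, a sum that lay between them.

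Spp1, the osteopontin gene, which both osteoblasts and late chondrocytes use, was far lower in Col2a1 cells of SAG plate 1 than of GP plate 2. The 3 Col2a1 cells of GP plate 1 had Spp1 at 7.16, 0 and 0 CPM, so the pooled GP level below came from GP plate 2. Summed over cells with a Col2a1 read, Spp1 was at 73.9 CPM in 22 SAG cells and 96284 CPM in 21 GP cells, and was read in 6 and 16 of them. Ibsp, the bone sialoprotein gene, was at 0.21 and 4607 CPM in the same cells, and Col1a1, the collagen of bone and fibrous tissue, at 5122 and 50001. The 13 osteoblast genes summed to 26555 CPM in Col2a1 cells of SAG plate 1 and 212837 in those of GP, a log2 ratio of -3.00. Over whole plates none of the 12 osteoblast genes above 10 CPM passed 4-fold in either direction, and the sums were 112019 CPM against 127140 and 184598. A single SAG cell gave 47.2% of the reads in its sum. The median cell was at 23012 CPM on SAG plate 1 against 126115 and 137264 on the GP plates.

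Osteoblast genes were highest in 5 of the 8 SAG cells with no Col2a1 read, at 214914 to 634108 CPM per cell, all above the highest of the 22 cells with Col2a1 (70227 CPM). The other 3 were at 8.80, 601 and 46126 CPM. Over the 8 cells the osteoblast genes summed to 304823 CPM, of which 1 cell gave 56.5%, and Col1a1 stood at 83414, with Sp7, the osteoblast factor osterix, at 420 CPM in 4 of 8 cells against 59.8 CPM in 4 of 22 cells with Col2a1. A single cell gave 94% of all Spp1 reads of the plate. Bglap, the osteocalcin gene, was read in 4 of the 8 cells and in 0 of the 22, although its reads may be shared with the near-identical Bglap2. Cells of 1 sample are not replicates, so no test was made between these sets.

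Mmp9, a gelatinase that opens cartilage matrix and that osteoclasts make in quantity, stood on SAG plate 1 at 7222 CPM against 0 and 252, 34.6-fold above all GP cells, and was read in 21 of 30 SAG cells (70%, 50.6% to 85.3%) and in 9 of 76 GP cells (11.8%, 5.56% to 21.3%). Among cells with Col2a1, 18 of 22 SAG cells and 5 of 21 GP cells had a read, at 10294 and 576 CPM. A single SAG cell gave 51.9% of the reads, and the PF and COR plates lay between 0 and 55.7 CPM. Mmp9 was on the list of osteoclast markers, of which Dcstamp, Ocstamp, Oscar and Tnfrsf11a had no read on any of these 3 plates and Acp5 was at 21.8 CPM against 19.9 and 53.6. The pan-leukocyte gene Ptprc, which encodes CD45, had no read on SAG plate 1.

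**Figure D3:**
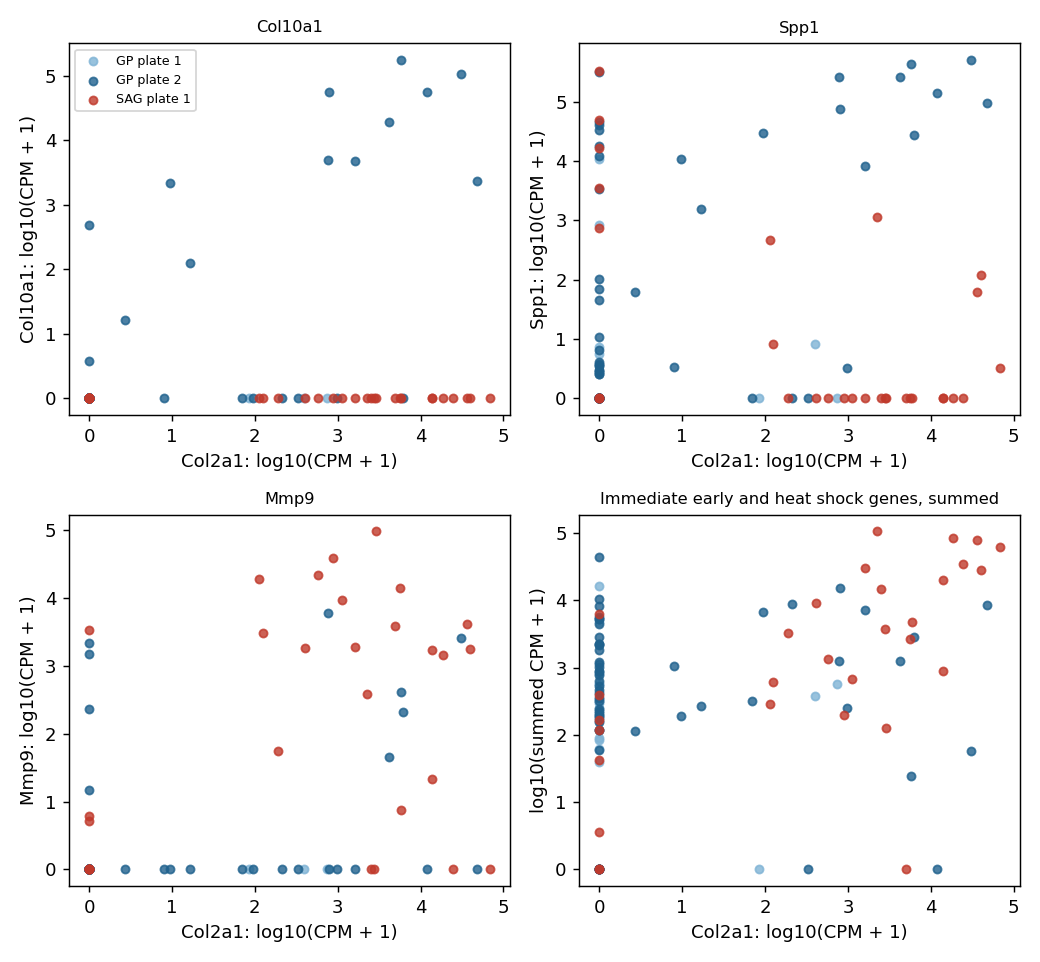
Each cell's level of Col2a1 (horizontal axes) against that of Col10a1, Spp1, Mmp9 and the 14 immediate early and heat shock genes summed (vertical axes), all as log10(CPM + 1), with 30 SAG plate 1 cells in red, 19 GP plate 1 cells in light blue and 57 GP plate 2 cells in dark blue. All 30 SAG cells lie at 0 for Col10a1, and 18 of the 22 SAG cells with Col2a1 lie above 0 for Mmp9.

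Several BMP ligands were higher on SAG plate 1. Bmp2, Bmp3 and Gdf10 were past 4-fold higher of 6 ligands above 10 CPM, beside 4.14% of all genes. Bmp3 was a marker chosen with earlier results of these data known, so its part in this count is no support. Bmp2 was at 69 CPM against 13.4 and 7.18 and Gdf10 at 289 against 61.6 and 25.7. Gdf5, a ligand of the joint interzone that was placed on the articular list, was at 176 CPM against 37.7 and 26.3. Smad6, an inhibitor that BMP signals switch on, was at 43.1 CPM against 0 and 5.65, whereas the secreted antagonists Grem1 and Fst had no read in SAG cells and stood at 97.4 and 14.2, and at 9.72 and 54. The remaining 10 genes of the receptor, antagonist and target list above 10 CPM passed in neither direction, among them Id3 at 485 CPM against 236 and 488.

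Most secreted Wnt inhibitors were lower on SAG plate 1. Of 8 inhibitors above 10 CPM, 5 were past 4-fold lower on SAG plate 1 and none was higher. Of all genes, 6.71% were lower and 4.14% higher. Sfrp2 was at 0.29 CPM against 299 and 106, and Dkk2 and Sfrp5 had no SAG read. Wif1, another inhibitor, was at 386 CPM against 511 and 581 and did not pass. Wnt5a, a noncanonical ligand, was at 5.38 CPM against 91.6 and 53.6, and Wnt16 had no read against 14 and 18. Of 7 Wnt response genes, Tcf7 was past 4-fold higher and Nkd2 and Lgr5 lower, while Axin2, the usual readout of canonical Wnt signals, was at 14.4 CPM against 0 and 6.76, from 3 cells.

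Fgfr1, Fgfr2 and Fgfr3, receptors of the FGF family, were above both GP plates, by less than 4-fold to the nearer one. Fgfr1 was at 389.5 CPM against 201 and 195, Fgfr2 at 512 against 224 and 239.6, and Fgfr3, which slows chondrocyte division, at 171 against 0 and 99. Igfbp3 and Igfbp6, which bind insulin-like growth factors, were past 4-fold lower, at 11.5 CPM against 1390 and 497 and at 3.20 against 319 and 159.5. Inhba, the activin A subunit, had no SAG read against 131 and 40 CPM, and the latent TGF-beta binding proteins Ltbp1 and Ltbp4 were lower at 39.1 against 523 and 389 and at 5.96 against 60.6 and 48.5. The sums of the TGF-beta, IGF, and hedgehog and PTHrP lists lay between the GP plates and had no direction.

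A share of the fibrous tissue genes was lower on SAG plate 1. Of 21 fibroblast and perichondrium genes, all above 10 CPM, 8 were past 4-fold lower, beside 6.71% of all genes. None was higher and 13 passed in neither direction, with sums of 23995 CPM against 69418 and 60716. Col3a1, the collagen of loose connective tissue, was at 3247 CPM against 22827 and 20134, although 27 of 30 SAG cells and 66 of 76 GP cells had a read. Col14a1, Eln, Mfap4, Mfap5, Dcn, Aspn and Postn were the other lower genes, and Eln, the elastin gene, was at 11.9 CPM against 419.7 and 300.2. Lum was at 4064 CPM against 5341 and 4239, and Col6a3 at 706 against 956 and 657.

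Of 6 tendon genes, 4 were past 4-fold lower, beside 6.71% of all genes. Tnmd, the tenomodulin gene, was at 77.7 CPM against 2929 and 1914, and Scx, the factor of tendon progenitors, at 7.42 against 36.7 and 64.4. Thbs4 and Kera had no read on SAG plate 1 and stood at 1460 and 250.0 CPM, and at 160 and 87.2 CPM on the GP plates. Fmod, a small proteoglycan of tendon and cartilage, was at 4509 CPM against 7363 and 5234 and did not pass.

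The largest ratios in favour of GP, beside Ostn, Spon2 and Hoxa10, included several genes without a SAG read. Egfl6, a secreted protein of bone-forming cells and their vessels, stood at 601 and 296 CPM in 12 and 18 GP cells, and Agtr2, the type 2 angiotensin receptor, at 646 and 179 CPM in 12 and 18 cells, with no SAG read of either. Abi3bp, a matrix protein, was at 2.18 CPM on SAG plate 1 against 829 and 538, and Fbln2, a fibulin of elastic matrix, at 8.29 against 867 and 600.2. Nov, a CCN family matrix protein, was at 0.87 CPM against 333 and 729.9, Cav1, of membrane caveolae, at 2.76 against 466 and 263, and Col24a1, a fibrillar collagen of bone, at 0.15 against 101.5 and 85.5. Itih5, Crabp1, Dmd and the unnamed transcript 6330403K07Rik had no SAG read, with 176 and 140.1, 73.9 and 56.5, 100.1 and 51.7, and 130 and 52.7 CPM.

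Myl9, a light chain of smooth muscle myosin, was at 7.71 CPM against 948 and 895 and was read in 13 of 19 and 31 of 57 GP cells. Summed reads of smooth muscle, nerve and endothelial markers were also higher in GP, where most came from few cells. The 7 pericyte and smooth muscle genes summed to 74.6 CPM against 2117 and 1952, led by Acta2, of which 1 GP cell gave 69.3% of the GP reads, and the 6 nerve and glia genes summed to 9.31 CPM against 419 and 769, from 12 GP cells, with Sox10 at 26.3 and 24.4 CPM and at 0 in SAG. Endothelial genes reached 2.62, 53.9 and 26 CPM, from 1, 1 and 2 cells, with Pecam1 at 0 throughout. Blood genes reached 7.27, 17.4 and 11.9 CPM. Their part in the lower genes was not tested.

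Reads of the sorted antigens' genes were present in both tissues. Itgav, which encodes CD51, was at 96.6 CPM against 71.1 and 77.3, and Cd200 at 287 against 219 and 104, and at least 1 of them was read in 24 of 30 SAG and 54 of 76 GP cells. Of the genes selected against, Thy1 and Tek had no read on the 3 plates. Eng, which encodes CD105, was at 15.9 CPM in 2 SAG cells and had no GP read, and Enpep, which encodes the 6C3 antigen, was at 39.4 CPM in 5 SAG cells against 9.12 and 4.97.

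Most immediate early genes, which cells switch on within minutes of a stimulus, were higher on SAG plate 1. Of 14 immediate early and heat shock genes, all above 10 CPM, 8 were past 4-fold higher, beside 4.14% of all genes. None was lower and 6 passed in neither direction, with a median log2 ratio over the 14 of 2.79. Fos was at 7064 CPM against 719.7 and 897, Jun at 1501 against 98 and 261, and Junb at 1059 against 74.5 and 155. Fosb, Atf3, Ier2, Zfp36 and the chaperone gene Dnajb1 were the others, although 1 SAG cell gave 88.9% of the Atf3 reads, while Egr1, at 884 CPM against 79.4 and 239.7, did not pass. The heat shock genes Hspa1a and Hspa1b, whose reads cannot be told apart with certainty, were at 37.1 CPM against 44.2 and 120.2, and at 26.9 against 39.7 and 85.5. The PF and COR plates summed to between 446 and 1092 CPM for the list, against 15142 on SAG plate 1.

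Outside the list, Btg2, an antiproliferative early response gene, was at 5657 CPM against 28.6 and 57.2, 108-fold above all GP cells, and Errfi1, an early response inhibitor of the EGF receptor, was at 1677 against 86.9 and 53.9. Btg2 was read in 19 of the 22 SAG cells with Col2a1 (86.4%, 65.1% to 97.1%) and in 0 of the 8 without (0% to 36.9%), and Fos in 16 and 0. The 14 genes summed to 21588 CPM in the former and 598 in the latter, of which 1 cell gave 91.8%. In GP the sums were 2655 CPM in the 21 cells with Col2a1 and 2186 in the 55 without.

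The promoters of Btg2 and Errfi1 are shown because these genes had the largest ratios among the early response genes and both carry the cyclic AMP response element (CRE) TGACGTCA, a palindrome that reads the same on both strands. The windows run from 250 bases before to 50 after the gene's start in RefSeq (build GRCm38.p6), and capitals mark the CRE.
Btg2, chr1:134079106-134079405, minus strand: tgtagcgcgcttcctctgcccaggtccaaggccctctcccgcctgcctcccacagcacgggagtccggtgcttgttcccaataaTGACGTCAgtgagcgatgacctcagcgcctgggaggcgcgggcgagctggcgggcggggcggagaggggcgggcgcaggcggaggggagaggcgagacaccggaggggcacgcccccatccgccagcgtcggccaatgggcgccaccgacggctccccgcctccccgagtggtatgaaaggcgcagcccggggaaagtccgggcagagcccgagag
Errfi1, chr4:150854820-150855119, plus strand: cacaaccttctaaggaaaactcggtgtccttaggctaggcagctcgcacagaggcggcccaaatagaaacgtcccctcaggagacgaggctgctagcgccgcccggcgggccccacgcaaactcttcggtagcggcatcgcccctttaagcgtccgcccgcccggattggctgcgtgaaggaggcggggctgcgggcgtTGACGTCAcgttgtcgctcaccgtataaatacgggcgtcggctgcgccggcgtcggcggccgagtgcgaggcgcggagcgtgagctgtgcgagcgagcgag
Of 16 genes, the list with Btg2 and Errfi1 added, 14 matched 16 windows, and 3 of these windows held a CRE. The third was that of Dusp1, which did not pass 4-fold. Of all 32851 windows of 300 bases, 1.79% held a CRE. Btg2 and Errfi1 were added for their ratios in these data, so their windows are no test against that share. Errfi1 had a second window, without a CRE. Of the 16 windows, that of Zfp36 alone held a CArG box, the serum response factor motif, which 1.63% of all windows hold. Egr1 and Ier2 had no window, and sites outside the windows were not looked at. A match is a description of the letters and says nothing of binding.

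Some cell cycle genes were lower on SAG plate 1. Of 20 of the list above 10 CPM, 9 were past 4-fold lower, beside 6.71% of all genes, and none was higher. The sums were 335 CPM against 1593 and 1028. A single cell gave 33.5% of the sum of GP plate 1 and another 36.1% of that of GP plate 2. The median cell was at 273 CPM on SAG plate 1 against 649 and 299. Summed over cells with Col2a1, the list was at 384 CPM on SAG plate 1 and 345 CPM in GP. Mki67, the proliferation marker, had no SAG read against 31 and 19.4 CPM, and Top2a, a topoisomerase of dividing cells, was at 0.15 against 41.3 and 109.9. These rested on few GP cells, since Mki67 was read in 6 of 76 and 1 of these gave 55.8% of its reads. Pcna, which all cells in S phase use, was at 79.9 CPM against 141 and 73.9.

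Of 17 glycogen genes, 11 reached 10 CPM and Ppp1r3b was the only one past 4-fold. Ppp1r3c, a related targeting subunit, came from 1 SAG cell, and Gys1, the muscle-type glycogen synthase, was at 52.2 CPM against 16.2 and 27.2. Of 8 natriuretic peptide genes, Ostn was likewise the only one past 4-fold, and Npr2, the receptor of C-type natriuretic peptide, was at 42.5 CPM against 62.8 and 24.5. Glycolysis genes gave 4250 CPM against 4953 and 3918, with only Hk2, a hexokinase, past 4-fold lower, at 0.44 against 19.4 and 9.44.

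**Figure D4:**
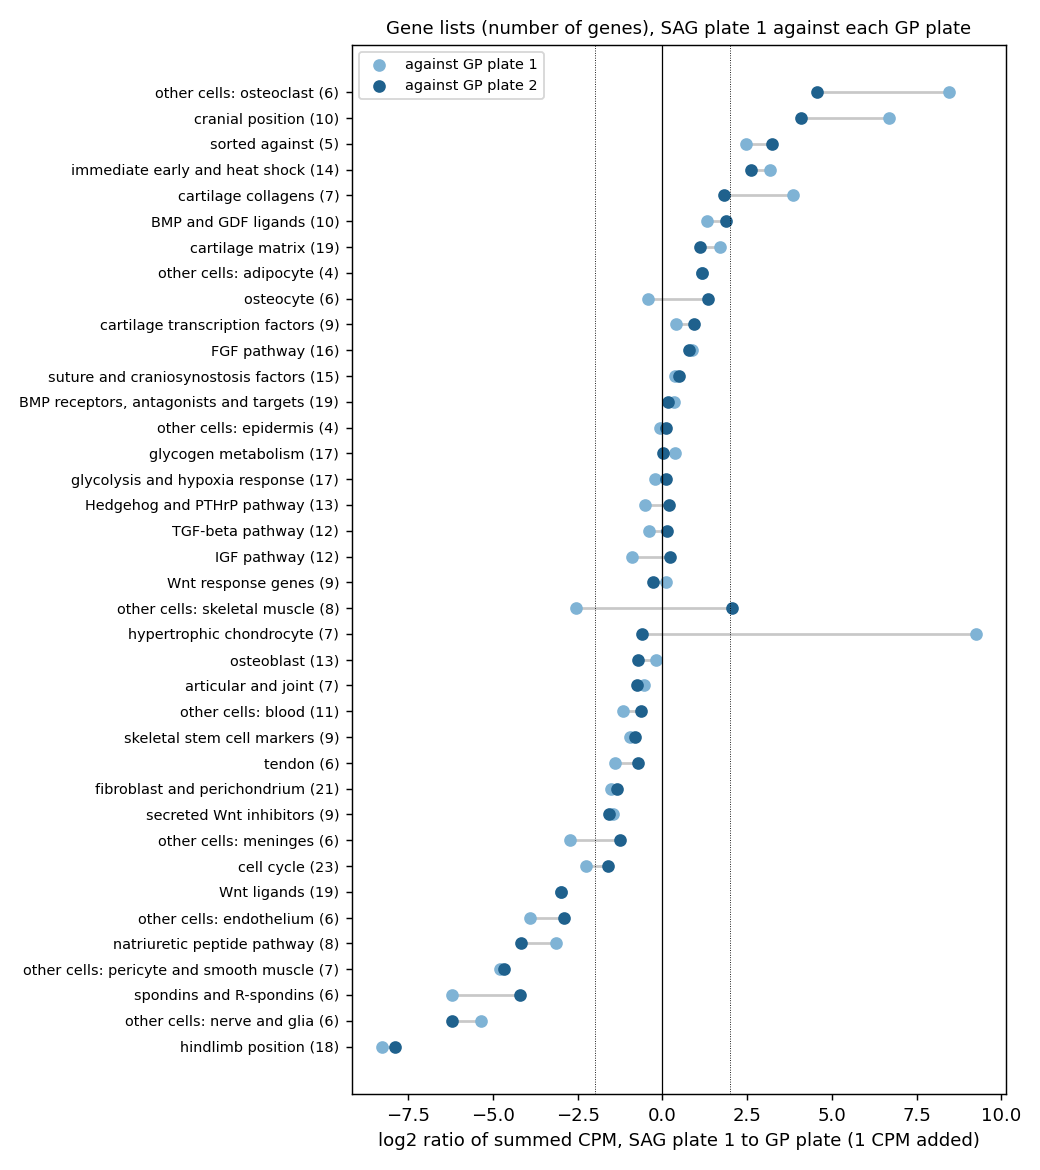
Log2 ratio of the summed CPM of each of 38 gene lists on SAG plate 1 to GP plate 1 (light blue) and to GP plate 2 (dark blue), 1 CPM added to each sum, with the number of genes in brackets and dotted lines at 4-fold. The hindlimb position list lies lowest against both plates, the cranial list lies second to the osteoclast list, which Mmp9 carries, against GP plate 2, and the hypertrophic list spans the widest range because GP plate 1 held few of its reads.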

How the data were processed

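Single cells were sorted into wells and sequenced in the SMART-seq2 manner, without molecular identifiers. The authors deposited raw read counts per gene and cell, in 8 tables of 24015 genes. The submitters' processing notes name STAR 2.5.3a, HTSeq, Seurat 2.3.0, R 3.4.4 and mm9, and whether counting used strand is not given in the sources used here. Groups came from the titles, and 0 columns were left without a sample.

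The cell filter removed 1 of 20 and 8 of 65 deposited GP cells. No doublet caller was run, since cells were sorted singly. Counts were summed over the cells of a plate with Rn45s left out, scaled to CPM and compared as log2 ratios with 1 CPM added, in Python 3.11.15 with numpy 2.4.6 and scipy 1.17.1. Sums carry exact Poisson and shares exact Clopper-Pearson intervals at 95%, for counting error only, since reads are not independent molecules. Each tissue was 1 sample, so no test was made. Positions came from GENCODE M1 (mm9). No 2 of the 106 cells had identical counts.

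Genes named by size were the 15 per direction with the largest ratio to the nearer GP plate, among genes past 4-fold, read in at least 20% of the cells of the higher side and with no cell giving over 50% of the reads. The 5 markers and members of 38 lists were also named. Members, lists and rules were chosen with earlier results of these data known. Alternatives were TMM factors (edgeR 4.0.16 in R 4.3.3), Rn45s in the totals, other pseudocounts, floors, folds and cell filters, thinned cells, and means over cells. A GP plate was also left out, or, for each list or gene, the cell of each tissue with the most of its reads.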

Additional observations from a re-analysis of the deposited data

How the results depend on the processing

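No paired analysis was possible because plate numbers do not tie tissues together and each tissue was 1 sample with no test. The counts of genes past 4-fold, 395 higher and 640 lower on SAG plate 1, became 105 and 141 with 10 CPM added to each side, 135 and 172 with a floor of 50 CPM, and 1150 and 1181 at 2-fold, and the higher count became 602 with no floor. Leaving out 1 GP plate at a time gave 667 to 1321 higher and 966 to 1143 lower genes. Higher genes were 38.2% of the calls, and 53.6% without GP plate 2. The median of all genes was 0.10 on the log2 scale, 0.24 with Rn45s in the totals and -0.07 with TMM factors.

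The log2 ratio of each list to all GP cells, leaving out 1 GP plate at a time, lay between 4.08 and 6.67 for cranial position genes, -8.29 and -7.88 for hindlimb position genes, 1.80 and 3.86 for cartilage collagens, 1.12 and 1.71 for cartilage matrix, -0.61 and 9.25 for hypertrophic genes, -1.53 and -1.34 for fibroblast genes, and 2.61 and 3.18 for immediate early genes. The hindlimb ratio, -7.96, became -7.44 with Rn45s in the totals and -4.69 with 10 CPM added. Without the cell of each tissue with the most reads of the list in question, cartilage matrix moved from 1.20 to 1.74 and fibroblast genes from -1.37 to -1.61. The latter also moved to -1.52 with TMM factors. The osteoblast ratio in cells with Col2a1 was -3.00, and -3.33 with at least 10 Col2a1 reads. Over all these settings, 11 of the 38 lists changed sign at least once, none of them a list past 4-fold. None of the 31 genes set as markers or named by size did. The causes were not tested.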

Other observations

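For the counts that follow, 6.71% of all genes were past 4-fold lower and 4.14% higher. Of 7 skeletal stem cell markers above 10 CPM, 3 were past 4-fold lower on SAG plate 1 and none was higher. The list summed to 1084 CPM against 2125 and 1904 on the GP plates. A single cell gave 38.5% of the sum of GP plate 2, and the median cell was at 941 CPM on SAG plate 1 against 2021 and 900. Of 5 articular and joint genes, Gdf5 was higher and Cilp lower, with sums of 733 CPM against 1080.4 and 1228. The 6 osteocyte genes summed to 306 CPM, between the GP plates, at 415 and 121. A single cell gave 89.3% of these reads on SAG plate 1, and another gave 68.5% of those on GP plate 1. Of 11 FGF pathway genes, Fgf9 and Fgf10 were lower and none was higher. Of 4 spondin and R-spondin genes, Spon2 and Rspo3 were lower, and the list summed to 16.3 CPM against 1278 and 320.4. Spon2 was a marker chosen with earlier results of these data known, so its part in this count is no support.

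Of the lists for other cells, the 6 meningeal genes summed to 20.1 CPM against 138 and 49.1, the 4 adipocyte genes to 180.0 CPM against 79.4 and 78.9, the 8 skeletal muscle genes to 3.49 CPM against 25.1 and 0.085, and the 4 epidermal genes to 9.60 CPM against 10.1 and 8.80.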
